A study of Trichoderma reesei with 6 samples.

Results

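In mycelia of *Trichoderma reesei* grown on cellulose, 51 weakly expressed genes had transcripts in the reference strain QPP that were at least halved in the strain Δ*gul1*, in which the *gul1* gene is disrupted. These genes were taken from a table of 9113 genes by 3 conditions. The mean level in QPP was at least 0.5 and below 5 FPKM (fragments counted on a gene, scaled by its length and by the fragment total of the library), the mean level in Δ*gul1* was at most 0.5 times that of QPP, and every Δ*gul1* library lay below every QPP library. Of the 54 genes that met these conditions, the chitinase gene *chi18-17*, the glucanase gene TRIREDRAFT_73256 and the xylosidase gene TRIREDRAFT_58450 were left out by name. Since the difference between the strains chose the 51 genes, it is described here and not tested on them.

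The filamentous fungus *T. reesei* secretes cellulases and hemicellulases when it grows on cellulose, and *gul1* encodes a member of the Ssd1 family of putative mRNA-binding proteins. In the yeast *Saccharomyces cerevisiae*, Ssd1 binds transcripts of cell wall proteins and represses their translation. Proteins with a GPI anchor, a lipid attached to the end of the protein, sit on the plasma membrane or in the cell wall of fungi. Glycoside hydrolases are grouped in numbered GH families by sequence.

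The 6 poly(A)-selected RNA-seq libraries came from 3 cultures of QPP and 3 cultures of Δ*gul1*. Both strains descend from QP4, a uridine auxotroph lacking a working *pyr4* gene that was made from QM9414, and both carry the *pyrG* marker, which was inserted at a random site in QPP and in place of the major part of *gul1* in Δ*gul1*. Δ*gul1* is a single transformant, so the deletion and any other change in that transformant cannot be told apart. Cultures were grown for 36 hr with 2% glucose and then for 48 hr at 30 °C with 1% microcrystalline cellulose as the only carbon source.

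The fragment totals behind the FPKM were 18877793 to 21659230 in QPP and 17654286 to 20652886 in Δ*gul1*, and 8821 to 8871 genes were above 0 FPKM in a library. The *gul1* transcript (TRIREDRAFT_77084) was at 86.9, 82.4 and 79.9 FPKM in the QPP libraries and at 0.979, 0.581 and 0.746 FPKM in the Δ*gul1* libraries, as the labels require. The cellobiohydrolase gene *cel7a*, a marker of growth on cellulose, averaged 27852 FPKM in QPP against 9953 FPKM in Δ*gul1*. The median of all genes was 0.14 higher in Δ*gul1* on the log2 scale with FPKM as deposited and 0.01 higher after scaling between the libraries. In RNA from whole mycelium, fewer cells of a kind and less RNA per cell cannot be told apart.

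Among the 51 genes, the mean level in QPP ranged from 0.505 to 4.97 FPKM with a median of 1.40. In Δ*gul1* the mean level ranged from 0.0633 to 1.88 FPKM with a median of 0.460. The level in Δ*gul1* was 5.84 to 49.8% of that in QPP, with a median of 34.5% (30.9% after scaling between the libraries). Of the 51 genes, 4 were at or under 10% of QPP, 11 at or under 20%, 22 at or under 30% and 31 at or under 40%. Together the genes summed to 90.5, 102 and 97.0 FPKM in the QPP libraries, 96.5 ± 5.74 (SD, n = 3), and to 33.8, 28.9 and 30.4 FPKM in the Δ*gul1* libraries, 31.0 ± 2.51 (SD, n = 3). By level in QPP, 19 genes lay between 0.5 and 1 FPKM, 11 between 1 and 2, 10 between 2 and 3, and 11 between 3 and 5.

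**Figure D1:**
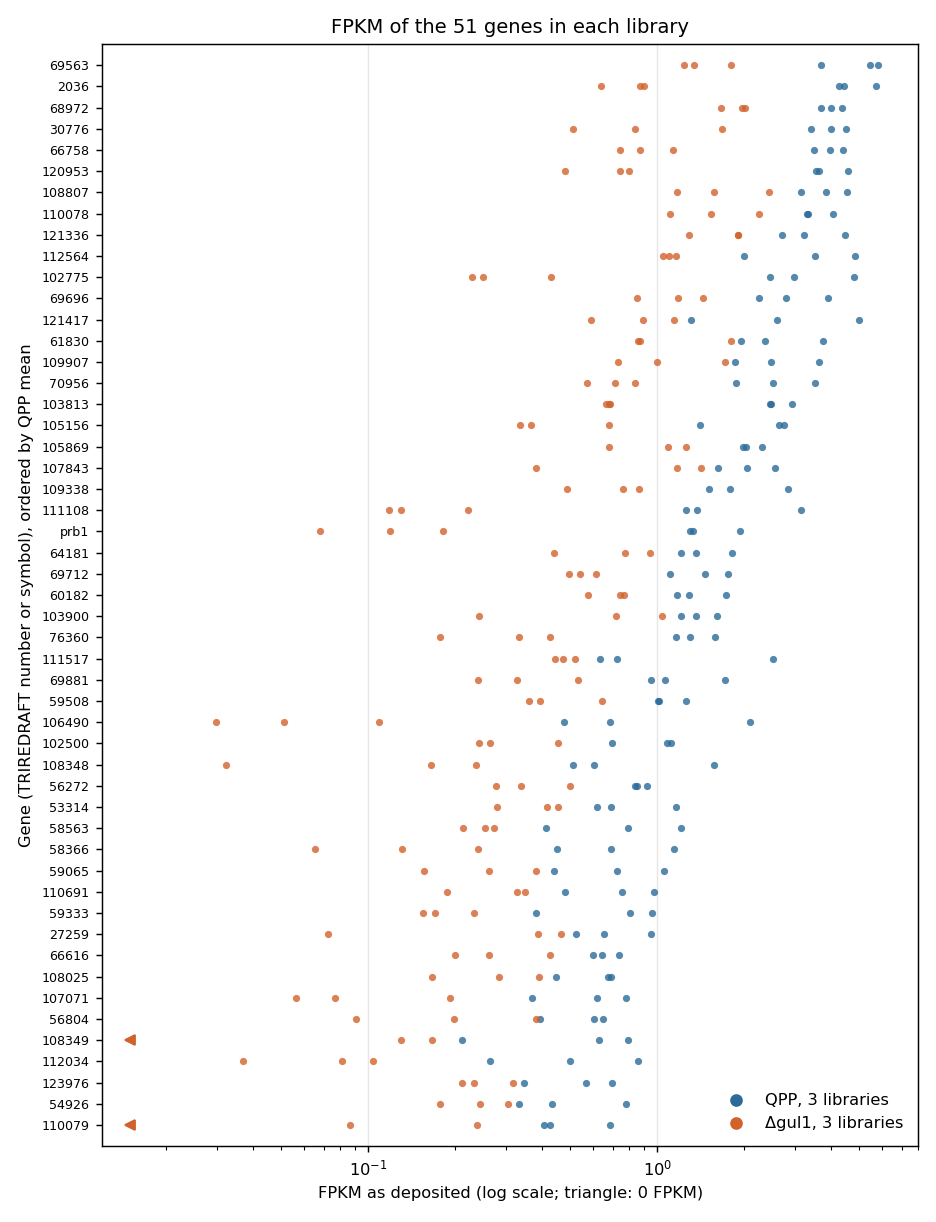
FPKM as deposited (log scale) of each of the 51 genes in the 3 QPP libraries (blue) and the 3 Δ*gul1* libraries (orange), with genes ordered by their mean in QPP and triangles marking 0 FPKM. In every row the blue points lie to the right of the orange ones, as the choice of genes requires, and the gap between the lowest QPP and the highest Δ*gul1* library runs from 1.03-fold to 7.14-fold.

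These levels rest on few reads. The FPKM of a library are whole multiples of 1 fragment for each gene length, which gave back the number of fragments behind each value. A gene had 3 to 265 fragments in a QPP library (median 33) and 0 to 101 in a Δ*gul1* library (median 10). Over all 51 genes there were 2305, 2979 and 2300 fragments in the QPP libraries and 888, 663 and 790 in the Δ*gul1* libraries. For a ratio between the strains, the fragments of each strain were summed and divided by the summed totals. Its exact 95% interval covers counting error only and leaves out the spread between cultures. The interval lay wholly below 100% for 50 genes and wholly below 50% for 23, counts that the choice of the genes largely sets and that are no test. It reached above 100% for TRIREDRAFT_54926, with 10, 6 and 4 fragments in QPP and 4, 2 and 3 in Δ*gul1* (47.3%, interval 19.0 to 109%). In 4 genes every Δ*gul1* library held at most 3 fragments.

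Only 6 of the 51 genes carry a symbol or a function in the deposited table or in the annotation given with the study, and the other 45 are known here by locus number alone. The named genes comprise a protease gene, 2 glycoside hydrolase genes, 2 genes of predicted GPI-anchored proteins and a gene of a cell wall protein.

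The protease gene, taken as such from its symbol alone, is *prb1* (TRIREDRAFT_121495), which lies from 1374373 to 1375940 on its scaffold of the QM6a assembly, version 2.0. The *prb1* gene of *Trichoderma atroviride* encodes a subtilisin-like serine protease known from its attack on other fungi. In QPP, *prb1* was at 1.33, 1.29 and 1.93 FPKM, or 1.52 ± 0.358 (SD, n = 3). In Δ*gul1* it was at 0.0679, 0.119 and 0.181 FPKM, or 0.123 ± 0.0568 (SD, n = 3), which is 8.09% of QPP. The lowest QPP library stood 7.14-fold above the highest Δ*gul1* library, the widest gap among the 51 genes. These values came from 130 fragments in QPP and 10 in Δ*gul1*, a ratio of 8.08% with an interval of 3.79 to 15.3%.

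TRIREDRAFT_108348 (1052099 to 1054072) is annotated as a putative glycosyl hydrolase of family GH43, whose members act on arabinan and xylan side chains and backbones. Its FPKM were 0.511, 0.604 and 1.57 in QPP and 0.165, 0.0322 and 0.235 in Δ*gul1*, so that the mean was 16.1% of QPP. QPP replicate 3 held 52 of the 93 QPP fragments, and Δ*gul1* replicate 2 held a single fragment. Without QPP replicate 3 the mean was 25.9% of QPP. TRIREDRAFT_27259 (107047 to 108439) is annotated as an α-galactosidase of family GH27, which removes galactose from side chains of polysaccharides. It was at 0.522, 0.656 and 0.950 FPKM in QPP and at 0.0724, 0.466 and 0.387 FPKM in Δ*gul1*, a mean of 43.5% of QPP. The strains nearly met for this gene, with the lowest QPP library at 0.522 FPKM and the highest Δ*gul1* library at 0.466 FPKM.

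TRIREDRAFT_121417 (821117 to 822319) encodes a probable GPI-anchored protein. Among the 6 genes with a symbol or a function, it had the largest ratio of the highest to the lowest QPP library. Its FPKM were 2.59, 4.99 and 1.30 in QPP, 2.96 ± 1.87 (SD, n = 3), and 0.894, 1.14 and 0.591 in Δ*gul1*, 0.876 ± 0.277 (SD, n = 3). QPP replicate 2 was 3.83-fold above QPP replicate 3, and QPP replicate 3 was close above the highest Δ*gul1* library. The mean in Δ*gul1* was 29.6% of QPP, and 45.0% without QPP replicate 2. TRIREDRAFT_64181 (45366 to 46082), the other probable GPI-anchored protein, was at 1.21, 1.82 and 1.36 FPKM in QPP and at 0.440, 0.772 and 0.941 FPKM in Δ*gul1*, a mean of 49.0% of QPP. TRIREDRAFT_105869, annotated as a cell wall protein, was at 1.98, 2.30 and 2.03 FPKM in QPP and at 0.680, 1.09 and 1.26 FPKM in Δ*gul1*, a mean of 47.9% of QPP. Its QPP libraries differed by 1.16-fold at most.

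The wider lists to which these genes belong held both lower and higher genes at these levels. Of 86 predicted GPI-anchored proteins, 10 had a QPP mean between 0.5 and 5 FPKM, and the median of these 10 in Δ*gul1* was 123% of QPP. Over all 86, the fit described with the genome-wide calls called 7 lower and 5 higher, larger shares than the 2.09% and 1.87% of all genes. Their median log2 fold change was 0.01, the same as that of all genes. Of 59 genes with a carbohydrate-active enzyme family in the study's annotation, 12 lay in that range of QPP means with a median of 251% of QPP, and over all 59 there were 37 lower and 13 higher calls with a median log2 fold change of −1.21. The study drew up this annotation from genes that differed between these same libraries, so neither the counts nor the medians of the 59 genes are independent of the comparison.

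The lowest level relative to QPP belonged to TRIREDRAFT_106490 (823822 to 825720), at 5.84%. It was at 0.684, 2.09 and 0.474 FPKM in QPP, 1.08 ± 0.879 (SD, n = 3), and at 0.0510, 0.0298 and 0.109 FPKM in Δ*gul1*, 0.0633 ± 0.0410 (SD, n = 3). QPP replicate 2 stood 4.41-fold above QPP replicate 3, the widest spread within QPP among the 51 genes. The gene had 129 fragments in QPP and 7 in Δ*gul1*, a ratio of 5.70% with an interval of 2.25 to 12.1%. Its place rested on QPP replicate 2, which held 86 of the QPP fragments, and without that library its level was 10.9% of QPP, above the 7.53% of *prb1*, the 7.10% of TRIREDRAFT_111108 and the 7.77% of TRIREDRAFT_102775. After *prb1* came TRIREDRAFT_111108 at 8.12% of QPP, with 1.25, 1.37 and 3.14 FPKM in QPP and 0.221, 0.129 and 0.118 FPKM in Δ*gul1*. This gene had 100 and 8 fragments, and its gene length could not be fixed from the values, so that its fragments are an upper bound.

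TRIREDRAFT_102775 was at 2.98, 2.45 and 4.79 FPKM in QPP and at 0.428, 0.250 and 0.228 FPKM in Δ*gul1*, or 8.87% of QPP. Its counted length was only 453 bp, and the Δ*gul1* libraries held 4, 2 and 2 fragments against 27, 24 and 41 in QPP. TRIREDRAFT_112034 was at 0.499, 0.857 and 0.265 FPKM in QPP and at 0.104, 0.0809 and 0.0369 FPKM in Δ*gul1*, or 13.7% of QPP. With 47 and 6 fragments its interval was wide, from 4.69 to 31.4%. The GH43 gene TRIREDRAFT_108348 was the next in this order.

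For the 6 genes with the highest level in QPP, the highest QPP library was 1.18-fold to 1.58-fold above the lowest. TRIREDRAFT_69563 was at 5.43, 5.81 and 3.69 FPKM in QPP and at 1.80, 1.24 and 1.34 FPKM in Δ*gul1* (4.97 ± 1.13 and 1.46 ± 0.298, SD, n = 3), or 29.3% of QPP. TRIREDRAFT_2036 was at 4.26, 5.70 and 4.41 FPKM in QPP and at 0.897, 0.874 and 0.639 FPKM in Δ*gul1*, or 16.8% of QPP. TRIREDRAFT_120953 (736405 to 738665) was at 3.63, 4.58 and 3.54 FPKM in QPP and at 0.796, 0.481 and 0.741 FPKM in Δ*gul1*, or 17.2% of QPP. In TRIREDRAFT_2036 and TRIREDRAFT_120953 all QPP libraries were at 3.54 FPKM or above and all Δ*gul1* libraries below 1 FPKM.

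TRIREDRAFT_66758 was at 4.38, 3.95 and 3.49 FPKM in QPP and at 0.743, 0.870 and 1.13 FPKM in Δ*gul1*, or 23.3% of QPP. TRIREDRAFT_30776 was at 3.99, 4.49 and 3.39 FPKM in QPP and at 1.67, 0.836 and 0.509 FPKM in Δ*gul1*, or 25.4% of QPP. For TRIREDRAFT_30776 the spread was wider in Δ*gul1*, where replicate 1 held 28 of 48 fragments. TRIREDRAFT_68972 was at 3.68, 4.34 and 3.97 FPKM in QPP and at 2.01, 1.97 and 1.66 FPKM in Δ*gul1*, or 47.0% of QPP, with the highest level in Δ*gul1* of all 51 genes.

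The 25 genes that are not named by the rule for naming genes had QPP means of 0.536 to 3.83 FPKM (median 1.24) and Δ*gul1* means of 0.108 to 1.73 FPKM (median 0.460). Their level in Δ*gul1* was 18.4 to 47.9% of QPP, with a median of 39.1%. The shortest of them, TRIREDRAFT_111517, was picked out after its values were seen because its difference rested on the fewest fragments. It had 11, 3 and 3 fragments in QPP and 2 in each Δ*gul1* library, so that QPP replicates 2 and 3 lay 1 fragment above Δ*gul1*. Its level was 37.0% of QPP, and 70.3% without QPP replicate 1. Of all 51 genes, 8 had a level relative to QPP that moved by over 1.5-fold when a library was left out, the other genes of this group being TRIREDRAFT_107071 (18.4%, and 11.3% without Δ*gul1* replicate 1) and TRIREDRAFT_56804 (40.8%, and 26.4% without that library).

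The limits of the choice ran through a continuous range of values. Just inside the ratio limit lay TRIREDRAFT_64181 (49.0%), TRIREDRAFT_121336 (49.0%) and TRIREDRAFT_60182 (49.8%), and just outside it TRIREDRAFT_103112 (50.2%), TRIREDRAFT_40808 (50.8%) and TRIREDRAFT_112133 (51.6%). At the lower limit of the QPP mean, TRIREDRAFT_110079 (0.505 FPKM) and TRIREDRAFT_54926 (0.515 FPKM) were inside, while TRIREDRAFT_32747 (0.470 FPKM, 11.7% of QPP) and TRIREDRAFT_112578 (0.473 FPKM, 25.1% of QPP) were outside. At the upper limit, TRIREDRAFT_2036 (4.79 FPKM) and TRIREDRAFT_69563 (4.97 FPKM) were inside, while TRIREDRAFT_103060 (5.004 FPKM, 29.1% of QPP) and TRIREDRAFT_5369 (5.16 FPKM, 15.7% of QPP) were outside. A further 8 genes met the limits on the means but had overlapping libraries. One of these was the probable GPI-anchored protein TRIREDRAFT_106998, at 1.12, 0.624 and 0.875 FPKM in QPP and at 0, 0.170 and 0.699 FPKM in Δ*gul1*.

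The 51 genes were set beside all other genes of the same level in QPP. There were 1121 genes with a QPP mean between 0.5 and 5 FPKM, of which the 51 make up 4.55%. The other 1070 had a median level in Δ*gul1* of 127% of QPP (114% after scaling) with quartiles of 97.7 and 166%. In the same range 54 genes (4.82%) were at most at 50% of QPP with no overlap, and 156 (13.9%) were at least doubled with no overlap. At this level in QPP more genes were thus higher in Δ*gul1* than lower. After scaling between the libraries these numbers were 65 and 112. With the range set on the Δ*gul1* mean instead, 140 genes were at least doubled with no overlap, and 98 with scaled FPKM. The share of genes halved without overlap was 2.47% below 0.5 FPKM, 1.93% from 5 to 50 FPKM, 1.84% from 50 to 500 FPKM and 6.64% above that. Over all 9006 genes above 0 FPKM, every Δ*gul1* library lay below every QPP library in 11.8% with FPKM as deposited, and in 22.7% after scaling between the libraries.

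**Figure D2:**
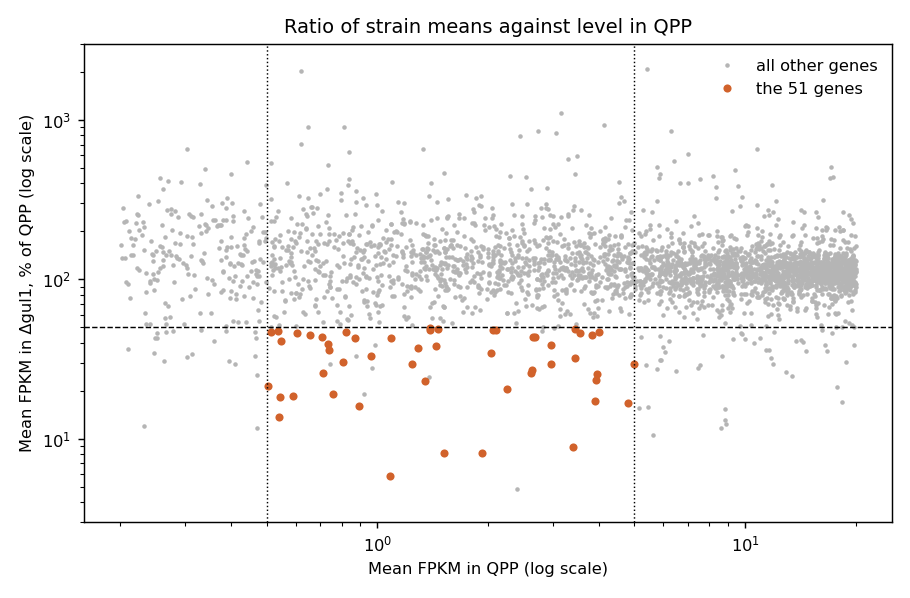
Mean FPKM in Δ*gul1* as a percentage of QPP against the mean FPKM in QPP (both axes log) for the 51 genes (orange) and the other genes with a QPP mean of 0.2 to 20 FPKM (grey), leaving out genes at 0 FPKM in Δ*gul1*. The dashed line marks 50% and the dotted lines 0.5 and 5 FPKM, and the grey points of that range centre on 127% while the orange points lie between 5.84 and 49.8%.

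Genes were called across all 9006 genes by limma, with log2 taken of the scaled FPKM plus 1, as lower or higher where the log2 fold change passed 1 in size with *p* under 0.05 before adjustment. In this fit 188 genes were called lower in Δ*gul1* (2.09%) and 168 higher (1.87%). Of the 51 genes 13 were called lower, a count that follows from their choice and is given without a test. They included *prb1*, TRIREDRAFT_121417 and 5 of the 6 genes with the highest level in QPP. None of the 19 genes with a QPP mean under 1 FPKM was among the 13, and 11 of the 21 with a QPP mean of at least 2 FPKM were. Adding 1 FPKM holds down the fold change of such low levels. From a QPP mean under 1 FPKM, even a gene without fragments in Δ*gul1* can hardly pass the fold threshold. The absence of the 19 genes was thus largely set by the fit. The median log2 fold change of the 51 genes was −0.73. With 0.1 FPKM added instead, the median was −1.43 and 49 of the 51 genes passed both thresholds, where 260 of all genes (2.89%) were called lower. The genes called higher then numbered 289. With voom, a limma fit for counts, on the recovered fragments, the median was −1.62 and again 49 passed, where 275 of all genes (3.05%) were called lower, and 48 genes passed in both. The genes called higher by voom numbered 316. With FPKM as deposited and 1 added, 150 genes were called lower and 237 higher, so that which direction held more calls depended on the scaling and on the value added.

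The genes that did not pass had few fragments, though TRIREDRAFT_110079 passed in both fits with 20 fragments in QPP and 4 in Δ*gul1*. With 0.1 FPKM added, TRIREDRAFT_123976 (log2 fold change −0.94) and TRIREDRAFT_54926 (−0.92) missed the fold threshold. With voom, TRIREDRAFT_111517 (−1.13) and TRIREDRAFT_54926 (−1.07) missed the threshold on *p*. The log2 fold change was below 0 for every one of the 51 genes in each fit that tested it, as their choice largely sets, and the fit with a minimum of 1 FPKM on the mean tested 25 of them.

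**Figure D3:**
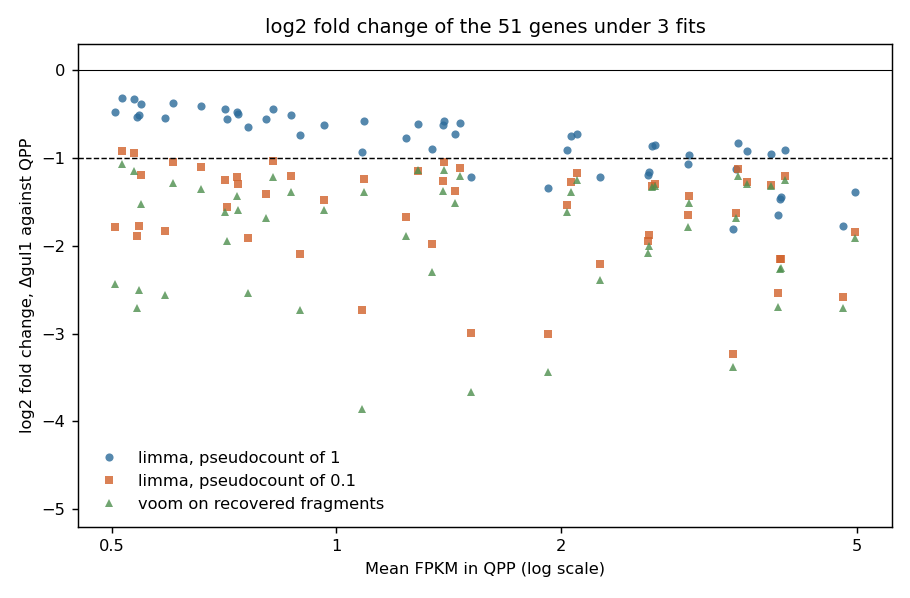
log2 fold change of Δ*gul1* against QPP for each of the 51 genes against its mean FPKM in QPP (log scale), from limma with 1 FPKM added (circles), limma with 0.1 FPKM added (squares) and voom on recovered fragments (triangles). The dashed line is the fold threshold of −1. Below 1 FPKM in QPP no circle lies past it, as adding 1 FPKM largely fixes, while most squares and triangles do.

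The spread of FPKM between libraries was wide in both strains and includes counting error. It is given as a description, since the same libraries chose the genes. The highest QPP library was 1.10-fold to 4.41-fold above the lowest, with a median of 1.73-fold, against 1.46-fold for the other genes of the range. Over the 49 genes with every Δ*gul1* library above 0 FPKM, the median was 1.87-fold in Δ*gul1* and 1.73-fold in QPP. The SD as a percentage of the mean had its median at 30.9% for QPP and at 35.6% for Δ*gul1*, and was larger in QPP for 21 genes and in Δ*gul1* for 30.

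The highest QPP value of a gene was in replicate 2 for 23 of the 51 genes, in replicate 3 for 18 and in replicate 1 for 10. Among the other genes of the range the shares were 39.6, 37.7 and 22.7%, against 45.1, 35.3 and 19.6% here. In Δ*gul1* replicate 1 held the highest value for 30 genes, replicate 3 for 16 and replicate 2 for 5, while the other genes of the range gave 32.2, 40.5 and 27.3% for replicates 1, 3 and 2. These shares describe the libraries and were not tested.

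In the annotation of the QM6a assembly, version 2.0, the 51 genes lay on 22 of 61 scaffold segments that could be told apart by gene order and position. The scaffolds have no names in the gene table used. Within 10 genes of a segment's end lay 6 of the 51 genes (11.8%), compared with 16.1% of the other genes of the range and 10.7% of all genes tested. The length over which fragments were counted was 219 to 2745 bp, with a median of 1356 bp against 1204.5 bp for the other genes of the range and 1329 bp for all genes. No gene of the 51 overlapped the gene beside it in these coordinates.

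There were 4 pairs of the 51 genes that were next to each other. TRIREDRAFT_121417, the probable GPI-anchored protein, and TRIREDRAFT_106490, the gene with the lowest relative level, lay 1502 bp apart, and QPP replicate 2 was the highest library for both. The GH43 gene TRIREDRAFT_108348 lay 1109 bp from TRIREDRAFT_108349 (1055182 to 1056054), which was at 0.629, 0.212 and 0.789 FPKM in QPP and at 0.166, 0.130 and 0 FPKM in Δ*gul1*. QPP replicate 3 was the highest library for both of these genes. With 28 fragments in QPP and 5 in Δ*gul1*, TRIREDRAFT_108349 had a ratio of 18.8% with an interval of 5.66 to 49.2%. Its mean was 18.2% of QPP, and 11.9% without Δ*gul1* replicate 1.

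TRIREDRAFT_76360 (763411 to 765632) and TRIREDRAFT_58366 (767731 to 770562) lay 2098 bp apart. TRIREDRAFT_76360 was at 1.29, 1.58 and 1.16 FPKM in QPP and at 0.426, 0.332 and 0.177 FPKM in Δ*gul1*, or 23.2% of QPP. TRIREDRAFT_58366 was at 0.693, 1.14 and 0.449 FPKM in QPP and at 0.131, 0.0655 and 0.239 FPKM in Δ*gul1*, or 19.1% of QPP. Within QPP both genes were highest in replicate 2 and lowest in replicate 3, and within Δ*gul1* their order differed.

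TRIREDRAFT_110078 (577852 to 578683) and TRIREDRAFT_110079 (579489 to 580237) lay 805 bp apart. TRIREDRAFT_110078 was at 4.06, 3.31 and 3.29 FPKM in QPP and at 2.25, 1.54 and 1.10 FPKM in Δ*gul1*, or 45.9% of QPP. TRIREDRAFT_110079 was at 0.687, 0.424 and 0.405 FPKM in QPP and at 0, 0.0866 and 0.237 FPKM in Δ*gul1*, or 21.4% of QPP, from 20 and 4 fragments, and 8.57% of QPP without Δ*gul1* replicate 3. In all 4 pairs the same QPP library was the highest for both genes. Among 248 other adjacent pairs in the range this held for 85 (34.3%), and the likeness was noticed after the values had been seen and was not tested.

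**Figure D4:**
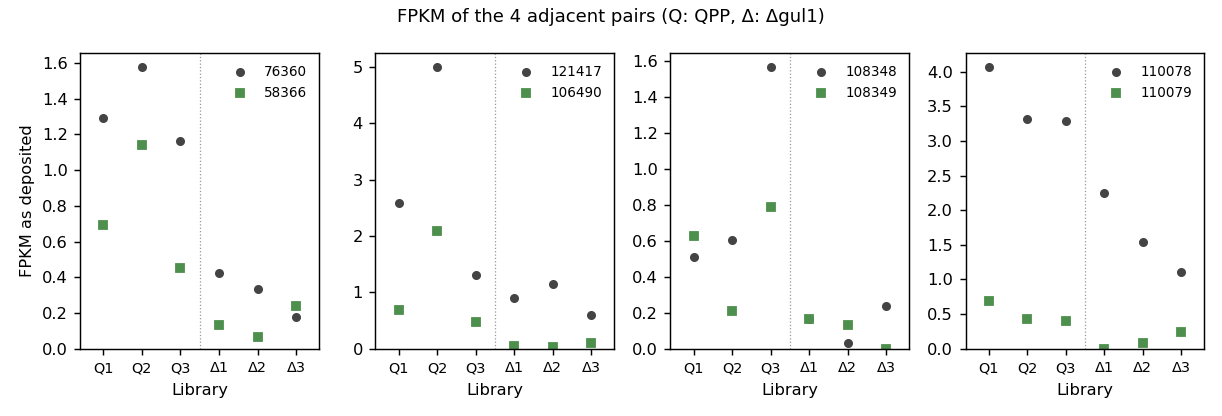
FPKM as deposited of the 4 pairs of adjacent genes in the QPP libraries (Q1 to Q3) and the Δ*gul1* libraries (Δ1 to Δ3). Circles mark the first and squares the second gene along the scaffold, each labelled by its TRIREDRAFT number. In each panel both genes have their highest point in the same QPP library, which is replicate 2 in the first 2 panels, replicate 3 in the third and replicate 1 in the fourth.

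The genes beside the 51 were not chosen by their own values and were tested in the fit across all genes. There were 93 such genes, leaving out those that are among the 51, and 91 were tested. Of these, 9 were called lower in Δ*gul1* (9.89%, against 2.09% of all genes) and 3 higher (3.30%, against 1.87%). With 0.1 FPKM added these counts were 12 and 8, where 260 of all 9006 genes were called lower and 289 higher. With voom they were 12 and 9, where 275 of all genes were called lower and 316 higher. In each of these fits, calls in both directions were thus more frequent beside the 51 genes than over all genes. Their median log2 fold change was 0.00. At an adjusted *p* under 0.05 with no fold threshold, 21 were lower (23.1%, against 15.0% of all genes) and 13 higher (14.3%, against 14.5%).

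The neighbours called lower with 1 FPKM added were expressed at 5.90 FPKM or more in QPP, above the range of the 51 genes. Since this fit can hardly call a gene under 1 FPKM in QPP lower, that level is partly set by the fit. TRIREDRAFT_106314, beside TRIREDRAFT_121336, was at 7.0, 14.9 and 4.70 FPKM in QPP and at 0.758, 1.94 and 0.600 FPKM in Δ*gul1*, with −2.26 ± 0.372 as the log2 fold change and its SE (Benjamini-Hochberg adjusted *p* = 0.00350 by limma). TRIREDRAFT_121336 was at 3.22, 4.46 and 2.70 FPKM in QPP and at 1.29, 1.90 and 1.90 FPKM in Δ*gul1*, with QPP replicate 2 the highest in both genes. TRIREDRAFT_110267, beside TRIREDRAFT_66758, was at 9.43, 8.34 and 8.70 FPKM in QPP and at 1.44, 1.12 and 1.50 FPKM in Δ*gul1* (change of −2.18 on the log2 scale, limma adjusted *p* = 1.5e-05). TRIREDRAFT_69529, beside TRIREDRAFT_69563, was at 58.9 ± 8.62 FPKM in QPP against 14.3 ± 2.42 FPKM in Δ*gul1* (SD, n = 3; log2 fold change −2.12, limma adjusted *p* = 5.5e-05).

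Among the neighbours with a function, TRIREDRAFT_108671, a β-glucosidase gene of family GH3 beside the GPI-anchored protein gene TRIREDRAFT_64181, fell from 23.4 ± 2.46 to 8.73 ± 0.707 FPKM (log2 fold change −1.47, limma adjusted *p* = 6.5e-05, n = 3). TRIREDRAFT_105444, a predicted GPI-anchored protein beside TRIREDRAFT_120953, fell from 7.47 ± 1.03 to 2.09 ± 0.845 FPKM (log2 fold change −1.60, limma adjusted *p* = 0.00078, n = 3). The others called lower were TRIREDRAFT_76230 beside TRIREDRAFT_58563 (log2 fold change −1.71), TRIREDRAFT_107844 beside TRIREDRAFT_107843 (−1.36), TRIREDRAFT_82619 beside TRIREDRAFT_112564 (−1.22) and TRIREDRAFT_102776 beside TRIREDRAFT_102775 (−1.17). The last pair differed widely in level, with TRIREDRAFT_102776 at 227 ± 17.8 FPKM and TRIREDRAFT_102775 at 3.41 ± 1.23 FPKM in QPP (SD, n = 3). Whether reads running on from the neighbour were counted on TRIREDRAFT_102775 was not tested.

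The 3 neighbours called higher were TRIREDRAFT_66544 beside TRIREDRAFT_66616 (1.85 ± 0.819 to 6.02 ± 1.83 FPKM, log2 fold change 1.18), TRIREDRAFT_122569 beside TRIREDRAFT_108807 (24.5 ± 1.60 to 60.6 ± 3.85 FPKM, 1.12) and TRIREDRAFT_69742 beside TRIREDRAFT_69712 (11.3 ± 1.35 to 28.2 ± 6.31 FPKM, 1.09; SD, n = 3). Without Δ*gul1* replicate 1 the log2 fold change of TRIREDRAFT_69742 was 0.91, under the fold threshold, and every other called neighbour kept its call with each library left out in turn. Whether counting used the strand of the reads is not given in the sources used here, so reads of a gene and of an antisense transcript cannot be told apart.

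A stretch of 34158 bp from TRIREDRAFT_120953 to TRIREDRAFT_58366 (736405 to 770562) held 4 of the 51 genes among 10 genes, and was put together after its values had been seen. TRIREDRAFT_59065, the other of the 4, was at 0.437, 0.724 and 1.05 FPKM in QPP and at 0.156, 0.261 and 0.382 FPKM in Δ*gul1*, or 36.1% of QPP. The stretch was not lower throughout. TRIREDRAFT_105444 was called lower, while TRIREDRAFT_105447 was at 0.516 ± 0.509 FPKM in QPP against 0.551 ± 0.251 FPKM in Δ*gul1* (limma adjusted *p* = 0.96, n = 3). TRIREDRAFT_105449 was at 1.50 ± 0.388 FPKM in QPP against 3.11 ± 0.553 FPKM in Δ*gul1*, a log2 fold change of 0.61 (limma adjusted *p* = 0.014, n = 3) that missed the fold threshold.

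A second stretch, of 14399 bp and also put together after its values had been seen, ran from TRIREDRAFT_112564 to TRIREDRAFT_70956 and had 4 genes between them. TRIREDRAFT_112564 was at 1.99, 3.51 and 4.83 FPKM in QPP and at 1.16, 1.05 and 1.10 FPKM in Δ*gul1*, or 32.0% of QPP. TRIREDRAFT_70956 was at 1.87, 2.51 and 3.51 FPKM in QPP and at 0.713, 0.834 and 0.571 FPKM in Δ*gul1*, or 26.8% of QPP. In both genes QPP replicate 3 was the highest and replicate 1 the lowest QPP library. Between them TRIREDRAFT_112567 fell from 118 ± 15.1 to 16.3 ± 2.52 FPKM (log2 fold change −2.94, limma adjusted *p* = 1.1e-05, n = 3) and TRIREDRAFT_82619 from 102 ± 14.8 to 48.7 ± 8.51 FPKM (−1.22, limma adjusted *p* = 0.00072, n = 3). TRIREDRAFT_70961, next to TRIREDRAFT_70956, was at 46.8 ± 9.55 FPKM in QPP against 45.7 ± 7.18 FPKM in Δ*gul1* (limma adjusted *p* = 0.42, n = 3).

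**Figure D5:**
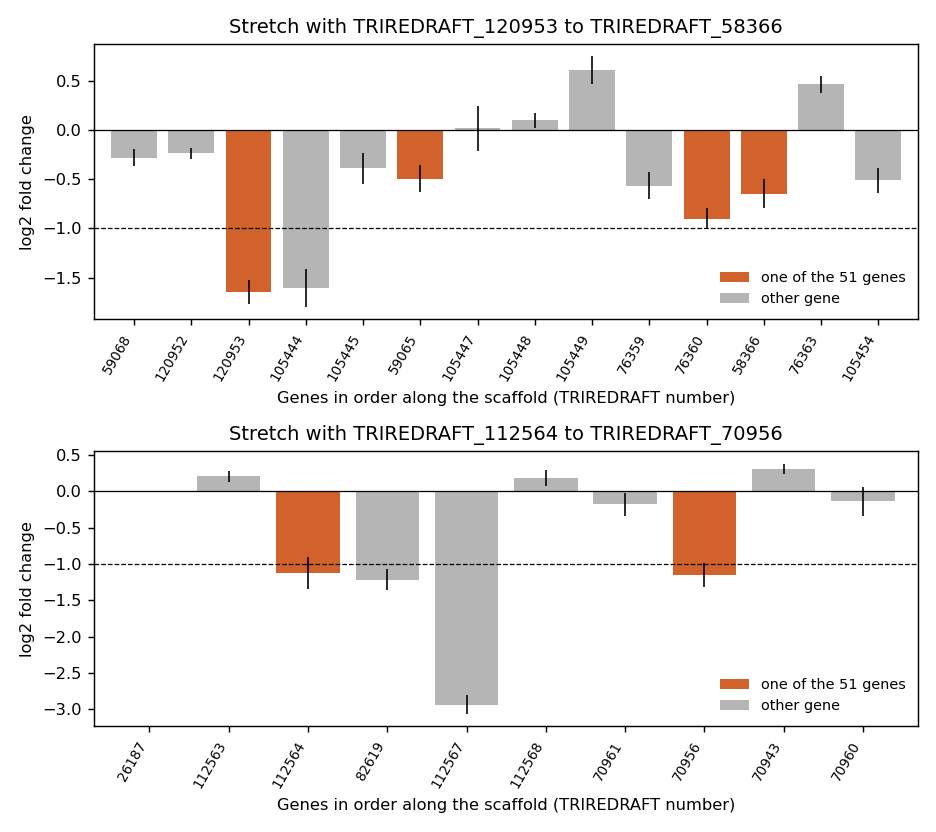
log2 fold change of Δ*gul1* against QPP from limma, with its standard error, for the genes of the 2 stretches and their neighbours in gene order, with the 51 genes in orange, other genes in grey and the fold threshold of −1 dashed. TRIREDRAFT_26187 was at 0 FPKM in every library and has no bar, and in both stretches lower genes stand among genes near or above 0, from −2.94 for TRIREDRAFT_112567 to 0.61 for TRIREDRAFT_105449.

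The α-galactosidase gene TRIREDRAFT_27259 was separated by a single gene from TRIREDRAFT_69696, which was at 2.79, 3.88 and 2.25 FPKM in QPP and at 1.44, 1.18 and 0.847 FPKM in Δ*gul1*, or 38.9% of QPP. The gene between them, TRIREDRAFT_5812, was at 8.95 ± 0.648 FPKM in QPP against 11.9 ± 0.603 FPKM in Δ*gul1* (log2 fold change 0.23, limma adjusted *p* = 0.089, n = 3).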

How the data were processed

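Paired reads of 6 libraries (3 cultures of QPP, 3 of Δ*gul1*) were trimmed with cutadapt, mapped with HISAT2 to the QM6a assembly and counted with HTSeq, and the authors deposited FPKM, which are not scaled between libraries. To scale the libraries, median-of-ratios size factors (0.931 to 1.07) were used, and log2 was taken after adding 1. The fit by limma 3.58.1 (R 4.3.3, eBayes with a trend, strain only) took in the 9006 genes that had FPKM above 0 in any library, with Benjamini-Hochberg adjustment over them and the fold and *p* thresholds of the study. Means, SDs and percentages of QPP use FPKM as deposited. Whole fragments were recovered for all 9006 genes within 0.001 fragments, for 8608 with 1 possible length and otherwise with the longest. Python 3.11.15 with pandas 2.3.3, scipy 1.17.1 and numpy 2.4.6 gave the other values. In simulated data the fit called 194 of 200 genes changed 4-fold, but only 24 of the 30 of these under 5 FPKM. The simulation used the same setting for the spread between libraries in all genes.

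The 51 genes, the lists and the tests were chosen with earlier results of these data known. Genes named are those with a symbol or annotation, the 6 lowest in ratio and the 6 highest in QPP, those near another of the 51 in gene order, and those next to the limits of the choice. Functions came from the annotation supplied with the study, except that *prb1* has none there and was taken as a protease gene from its symbol. Positions came from the RefSeq gene table of the QM6a assembly, version 2.0, in which 8875 names matched by locus tag, 234 by symbol and 4 not at all. Alternatives were no scaling between libraries, scaling by the upper quartile or by quantiles, 0.1 FPKM added, a floor of 1 FPKM on the mean, no trend in eBayes, a replicate block, voom, no fold threshold, other limits for choosing genes, and leaving out each library. With 3 libraries a strain, *p*-values set the difference between the strains against the spread between cultures, moderated over all genes. They do not cover differences between transformants.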

Additional observations from a re-analysis of the deposited data

How the results depend on the processing

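Of 688 log2 fold changes of single genes among the 51 under the alternatives, none changed sign, 597 kept their side of the call, 86 gained a call and 5 lost one. Of the 13 called genes, 9 kept their call under all 14 alternatives with a fold threshold, and *prb1* kept it under the 13 that tested it, having been left out by the minimum mean of 1 FPKM. The exceptions were TRIREDRAFT_121417 (log2 fold change −0.98 with FPKM as deposited, −0.72 when QPP replicate 2 was left out and −0.95 when Δ*gul1* replicate 3 was), and TRIREDRAFT_112564 (−0.91) and TRIREDRAFT_70956 (−0.99), both without QPP replicate 3. With 0.1 FPKM added, 49 of the 51 genes were called lower, all genes called higher numbered 289 and genes beside the 51 called higher 8. With voom on recovered fragments these counts were 49, 316 and 9. With an adjusted *p* under 0.05 by limma and no fold threshold, 47 of the 51 genes, 1354 of all genes and 21 genes beside the 51 were lower, and 1309 and 13 were higher. With a library left out, 13 to 17 of the 51 genes, 182 to 197 of all genes and 9 to 10 of the genes beside the 51 were called lower, and 163 to 181 and 2 to 3 higher. With FPKM as deposited the calls over all genes were 150 lower and 237 higher, against 188 and 168 after scaling.

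The number of genes chosen was 31 with a ratio of at most 0.4, 32 with a QPP mean from 1 FPKM, 61 with scaled FPKM (49 of the 51 among them) and 49 to 62 with a library left out. Of the 51 genes, 27 met the rule with every library left out in turn.

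Same-numbered libraries of the strains correlated at −0.09, 0.18 and 0.37 in their deviations from the strain means, and differently numbered ones at −0.44 to 0.33. From so few libraries, whether the numbers pair the cultures cannot be told. With the replicate block 13 of the 51 genes were called lower, as without it, and over all genes 188 were lower and 169 higher. The median of 10 fragments for a gene and Δ*gul1* library limits how closely a ratio is known, and strain and transformant cannot be told apart.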
